A study of Arabidopsis thaliana with 12 samples.

Results

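Seedlings carrying an RNAi construct against the kinase gene TOR were compared with wild-type seedlings after glucose was given to both. The comparison uses 6 of the 12 expression arrays of the series, chosen by their labels: 3 of Arabidopsis thaliana estradiol-inducible RNAi-tor seedlings with glucose (tor) and 3 of wild-type Col-0 seedlings with glucose (WT). All seedlings were 3 days old, were grown in a liquid salt medium in multi-well plates, and received 15 mM glucose for 2 h before RNA of the whole seedling was taken. The other 6 arrays hold the same genotypes without glucose, 3 of each, and are used only to show where the difference with glucose is another one. The sources used here do not say whether the WT seedlings also received estradiol, so the inducer and the silencing cannot be told apart, and they do not say how many RNAi lines were used. The labels call the replicates biological. Each array measured 22746 probe sets besides controls, each a group of short probes for a transcript, and 13513 of these carry the name of exactly 1 gene here. No probe set is named for TOR itself, and the silencing could not be checked from these values.

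TOR is a protein kinase that works in a complex with RAPTOR and couples the supply of nutrients to growth. In plants, glucose from photosynthesis activates it, and active TOR promotes ribosome production, translation and cell division while it restrains autophagy, the breakdown of cell contents in the vacuole. SnRK1 is the kinase that acts when sugar is short, and the transcripts known as sugar starvation genes, many of them for the breakdown of amino acids, accumulate under it. In whole seedlings a lower transcript level can mean fewer cells of a type or less RNA in each cell, which arrays of bulk RNA cannot tell apart.

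With glucose, tor seedlings had lower levels of most cytosolic ribosomal protein and ribosome biogenesis transcripts measured and of 3 DNA replication genes, and higher levels of autophagy and sugar starvation transcripts. A difference counts as called where its adjusted p was under 0.05 (limma, moderated test over all 12 arrays, Benjamini-Hochberg over all probe sets). By this rule 9418 probe sets differed, 41.4% of those tested, of which 5776 were higher in tor (25.4%) and 3642 lower (16.0%). At least 2-fold differences were called for 2199 higher (9.67%) and 1445 lower probe sets (6.35%). A call is thus common here, and each count of genes below is to be read against these shares. For 12145 probe sets (53.4%) the 3 tor arrays lay all above or all below the 3 WT arrays. A lack of overlap is thus common too.

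The split into higher and lower depends on how the arrays are scaled. Values are given as deposited, on the log2 scale of RMA, the method that turns probe signals into 1 value per probe set. The median of all probe sets was 6.82 ± 0.04 (SD, n = 3) on the tor arrays and 6.64 ± 0.05 (n = 3) on the WT arrays, with no overlap (exact two-sided permutation test, p = 0.1, the smallest that 3 against 3 arrays allow). A second quantile normalization, which gives all arrays the same distribution, left 9212 called (40.5%), 4560 higher (20.0%) and 4652 lower (20.5%). Higher probe sets made up 61.3% of the calls as deposited and 49.5% after it. Centring each array on its median took off 0.18 from every difference and gave 3838 higher (16.9%) and 5313 lower (23.4%), 41.9% higher. The median difference over all probe sets was 0.08 as deposited, -0.01 after the second quantile normalization and -0.09 after centring. Most single calls did not depend on this choice, since 8095 probe sets were called in the same direction as deposited and after the second quantile normalization, 4506 higher and 3589 lower, and 0 in opposite directions. Of the 1323 called only as deposited, 1270 were higher, and of the 1117 called only after quantile normalization, 1063 were lower.

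**Figure D1:**
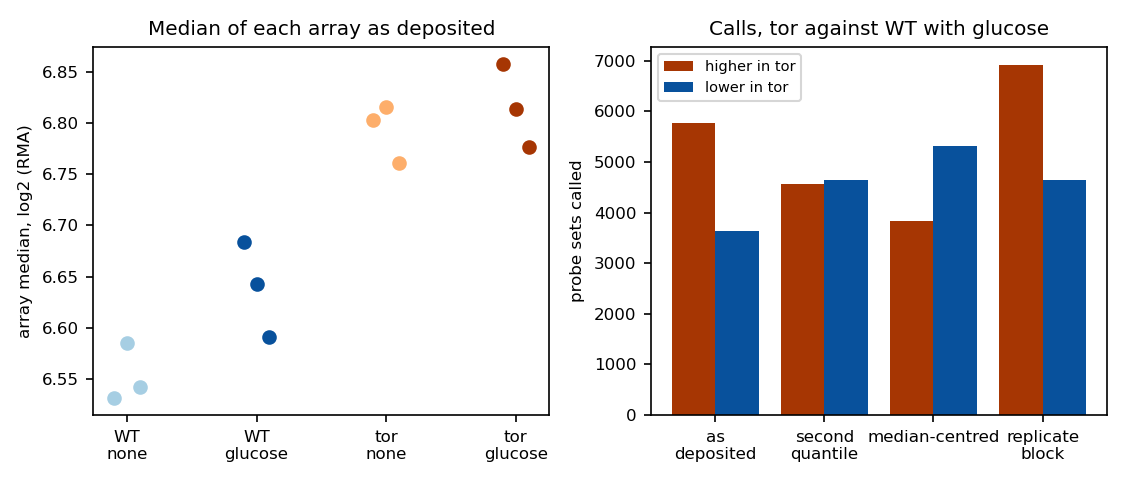
Left, the median log2 level of each array as deposited for WT and tor without (none) and with glucose, 1 point per array. Right, the number of probe sets called higher (brown) and lower (blue) in tor with glucose under 4 ways of treating the arrays; higher calls fall from 5776 as deposited to 4560 after a second quantile normalization and 3838 after centring.

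Arrays of the same replicate number moved together, and the pair numbered 1 showed the smallest differences in most gene lists. Leaving out all arrays numbered 1, an alternative chosen after this was seen, gave 10309 calls, 6122 higher and 4187 lower. Blocking on the replicate number gave 11565 calls, 6926 higher (30.4%) and 4639 lower (20.4%). Control probes at the 3′ and 5′ ends of the same transcript, a measure of RNA quality, also moved with genotype. The 3′ minus 5′ log2 difference was 0.96 ± 0.11 in tor and 0.63 ± 0.07 in WT for GAPDH (exact permutation test, p = 0.1), but 1.41 ± 0.04 against 1.73 ± 0.11 for ubiquitin (p = 0.1) and 1.80 ± 0.12 against 2.04 ± 0.10 for actin (p = 0.2, n = 3 and 3 in each). The directions thus differ between the controls, and their part in the results was not tested.

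The highest differences were in genes that were at the level of dim probe sets in WT. AT5G59845, a gene of the gibberellin-regulated GASA family, had log2 levels of 4.60, 4.11 and 4.01 on the WT arrays and 11.96, 12.34 and 12.13 on the tor arrays, a difference of 7.90 ± 0.22 (SE, limma adjusted p = 1.08e-08). The tor arrays lay far above the WT arrays and close to each other. AT1G56710, of the pectin lyase-like family of cell wall enzymes, gave 3.59, 3.63 and 3.86 in WT and 10.74, 11.08 and 11.15 in tor (7.30 ± 0.17, adjusted p = 3e-09). The groups were again widely separated. A level under 5, below which 29.5% of all probe sets lie on average over the arrays, may be background signal, and the size of such a difference is a lower limit. This holds for the WT mean of 8 of the 12 genes with the highest differences.

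The other genes among the 12 highest include members of signalling and defence-related families. AT2G34930, a gene of the leucine-rich repeat disease resistance family, had levels of 4.72, 5.62 and 5.21 in WT and 10.67, 11.10 and 11.30 in tor (5.84 ± 0.26, adjusted p = 4.04e-07). AT3G13672 (SINA2), a relative of the SINA ubiquitin ligases, gave 4.95, 5.55 and 5.41 against 10.89, 10.58 and 10.61 (5.39 ± 0.17, adjusted p = 1.89e-08). Both genes were high on all 3 tor arrays and low on all 3 WT arrays. The remaining members were AT1G71470 with a log2 difference of 6.65, AT1G33320, related to cystathionine gamma-synthase, with 6.35, the dioxygenase-family gene AT5G59530 with 5.50, the receptor-like cytoplasmic kinase gene AT3G07070 with 5.35, and the receptor kinase gene AT5G45840 with 4.62. EXLA1, an expansin-like gene, was measured above the dim level in both groups, at 7.57, 7.80 and 6.82 in WT and 11.14, 11.74 and 11.84 in tor (4.18 ± 0.44, adjusted p = 7.62e-05). Its arrays did not overlap, as the choice of these 12 genes requires. All 12 were also called higher in tor without glucose, where AT5G59845 differed by 8.35 and AT1G56710 by 7.27. Of the 12, AT3G13672 was called for a different genotype difference with and without glucose, which was 5.39 with it and 6.83 without.

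Neighbouring genes of the berberine bridge enzyme-like oxidases, secreted flavin enzymes of which some act in defence, were high together, although with a wide spread among the tor arrays. AT1G26380 (FOX1) had levels of 3.76, 4.04 and 4.32 in WT and 8.65, 10.63 and 10.39 in tor (5.85 ± 0.87, limma adjusted p = 0.000522). AT1G26390 gave 3.33, 3.36 and 3.33 against 7.18, 9.73 and 10.43 (5.77 ± 0.97, adjusted p = 0.00103). In both, the tor array numbered 1 was the lowest of the 3 and still far above WT. AT1G26410 differed by 4.14, AT1G26420 by 3.56 and AT1G26400 by 1.19. Genes this alike can share probes, so their levels may not be independent. Over the family, a list added after values were seen like others below, 10 of 22 measured genes were higher, 3 lower and 9 not called. This stands against 25.4% higher and 16.0% lower over all probe sets, and the family median was 0.67 (0.63 after the second quantile normalization). The replicate block gave 11 higher and 3 lower. Of the 22 genes, 13 had a mean level over all arrays under the dim level of 5, among them the 3 called lower. When such probe sets were left out of the fit, 9 of 9 genes were higher, with a median of 1.86. AT2G34810, of the dim genes, was lower by 1.04 on the log2 scale (-1.04, adjusted p = 0.0073). Among other defence genes measured, SAG101, a lipase-like partner of EDS1 in immunity, was higher by 1.93 ± 0.32 (adjusted p = 0.000892). The defensin gene PDF1.2, with 5.24, 6.43 and 5.11 in WT and 3.83, 5.06 and 3.72 in tor, was lower (-1.39 ± 0.38, adjusted p = 0.0139), a call lost without the tor array numbered 3 (adjusted p = 0.0586). STZ (ZAT10), a zinc-finger gene that responds to stress and handling, was higher by 2.94 ± 0.58 (adjusted p = 0.00248), while WRKY53 of the same list gave 1.23 (adjusted p = 0.125).

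**Figure D2:**
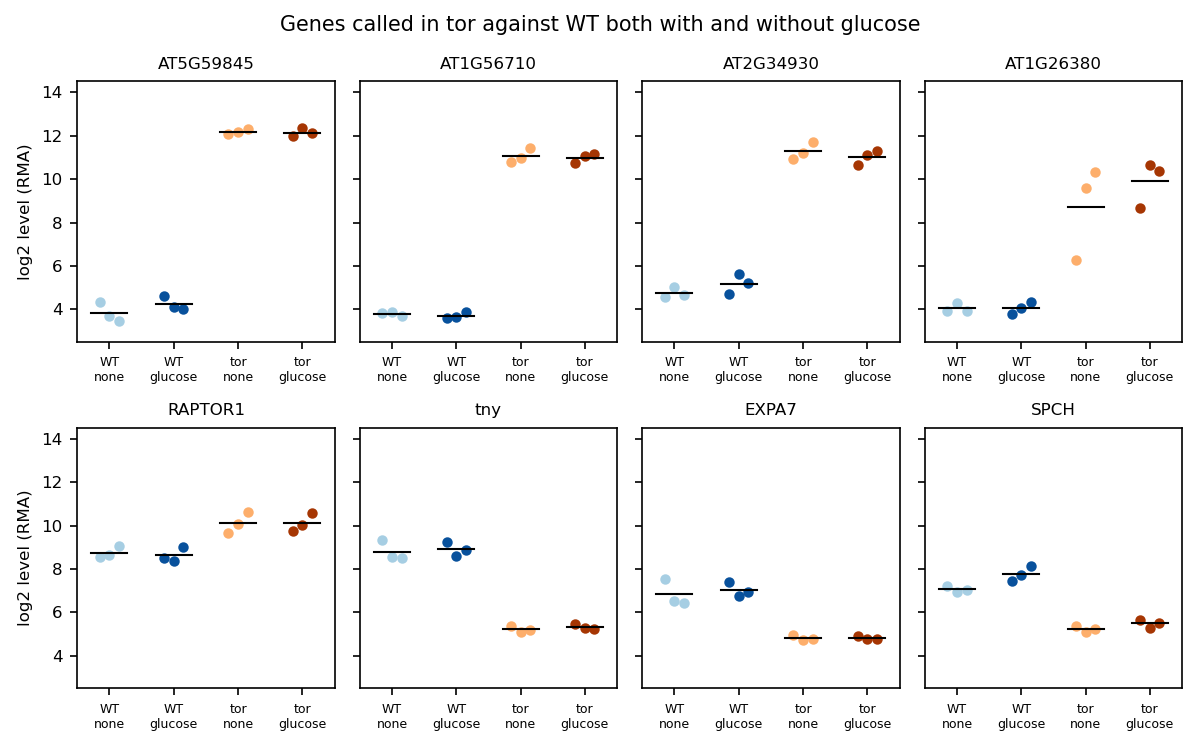
Log2 level (RMA, as deposited) of 8 genes on each array, 3 points per group with the group mean as a line; the genes were picked for display after their values were seen. AT5G59845, AT1G56710, AT2G34930, AT1G26380 and RAPTOR1 lie higher and tny, EXPA7 and SPCH lower in tor, both without (none) and with glucose.

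The lowest differences were in a pair of cytosolic small heat-shock protein genes, which code for chaperones that hold unfolded proteins. AT2G29500 (HSP17.6B) had log2 levels of 8.97, 9.87 and 10.01 in WT and 4.97, 5.15 and 4.76 in tor (-4.66 ± 0.32, limma adjusted p = 8.89e-06). AT1G53540 (HSP17.6C) had 7.13, 8.70 and 9.64 in WT and 3.88, 4.48 and 4.30 in tor (-4.27 ± 0.48, adjusted p = 0.000119). In both, all tor arrays lay near or under the dim level and the WT array numbered 1 was the lowest of its group. Without glucose, the genotypes gave 5.24 and 4.83 for AT2G29500 and 4.01 and 4.34 for AT1G53540, so both were low in either genotype. Of 8 small heat-shock protein genes measured, 4 were lower, 0 higher and 4 not called, with a median of -1.85 ± 0.95 (SD over the 3 same-number pairs). The pairs gave -0.75, -2.41 and -2.40. The median was -2.02 after the second quantile normalization, with 5 lower, and the replicate block gave 6 lower. ATHSP22.0, of the endoplasmic reticulum, was lower by 1.65 on the log2 scale (-1.65 ± 0.38, adjusted p = 0.00585). AT1G54050, with 7.65, 9.32 and 8.29 against 6.88, 6.38 and 5.85, was also lower (-2.05 ± 0.62, adjusted p = 0.0221). That call was lost without the WT array numbered 2 (adjusted p = 0.0868), the tor array numbered 2 (0.0566) or the tor array numbered 3 (0.0798). AT1G52560 differed by -0.01 and AT5G37670 by -0.09.

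The other genes among the 12 lowest act in cell walls, lipids, plastids and hormone response. AT5G55450, a lipid transfer protein gene, had 8.65, 10.33 and 11.33 in WT and 7.20, 5.40 and 5.15 in tor (-4.19 ± 0.77, adjusted p = 0.00169). Its arrays spread widely within each group without overlapping. tny, an AP2/ERF transcription factor gene, had 9.25, 8.60 and 8.87 against 5.46, 5.30 and 5.24 (-3.57 ± 0.22, adjusted p = 4.15e-06), and the same difference without glucose, -3.57. Cpn60beta2, a subunit of the chloroplast chaperonin, had 12.11, 11.79 and 11.86 against 9.72, 8.02 and 8.08 (-3.31 ± 0.81, adjusted p = 0.00787), with the tor array numbered 1 the highest of its group. The others were the auxin-related SAUR family gene AT3G53250 with -3.91, AT4G39675 with -3.78, the class III peroxidase gene AT4G26010 with -3.54, the GDSL lipase genes AT4G28780 with -3.52 and AT3G48460 with -3.41, the DNA primase gene POLA3 with -3.22 and AT4G28310 with -3.20. Of these 12 genes, 6 were called lower in tor without glucose as well. For 5 of the 12 the tor mean was under the dim level.

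Transcripts of the cytosolic ribosome were lower as a group, in lists added after values were seen. Of 81 genes of the 60S subunit measured, 74 were lower, 1 higher and 6 not called, with a median of -1.23 ± 0.42 (SD over 3 pairs), against a median of 0.08 and 16.0% lower calls over all probe sets. The pairs gave -0.80, -1.43 and -1.61. Of 48 genes of the 40S subunit, 42 were lower, 0 higher and 6 not called, with a median of -1.07 ± 0.32 (pairs -0.71, -1.17 and -1.33). The direction of both medians held under the other scalings, at -1.20 and -1.05 after the second quantile normalization, with 69 and 40 lower, and at -1.41 for the 60S list after centring, with 76 lower. Leaving out 1 array with glucose at a time gave 63 to 72 lower for the 60S and 32 to 42 for the 40S list. The replicate block gave 75 and 42 lower. Of the 42 genes of the 40S list with a mean level over all arrays of at least 5, 42 were lower, so its 6 members without a call were all dim.

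The largest differences among these were of single copies of a protein that has several genes. AT2G32220, for ribosomal protein RPL27, had 9.25, 9.52 and 9.70 in WT and 7.10, 6.59 and 6.80 in tor (-2.66 ± 0.19, limma adjusted p = 8.98e-06). AT3G57490, for RPS2, had 9.74, 9.93 and 10.40 in WT and 8.04, 7.29 and 7.41 in tor (-2.44 ± 0.27, adjusted p = 0.000101). AT3G06680, for RPL29, had 10.84, 11.01 and 11.36 against 9.14, 8.50 and 8.41 (-2.39 ± 0.30, adjusted p = 0.000213). In all 3, and in the next, the tor array numbered 1 was the highest of its group and below every WT array. AT5G60670, for RPL12, had 12.20, 12.16 and 12.43 against 10.47, 9.75 and 9.53 (-2.35 ± 0.35, adjusted p = 0.000571). AT1G07070 (RPL35a), AT5G61170 (RPS19) and AT5G52650 (RPS10) were lower, with log2 differences of -2.57, -2.03 and -1.88. The exception was AT2G47570, a copy of RPL18, which was higher by 0.43 (adjusted p = 0.0179) with a mean level over all arrays under 5. Its call was lost after centring, and without the WT array numbered 1 or the tor array numbered 3. Near-identical copies may share probes, so the value of 1 copy is less certain than that of the list.

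Genes for making ribosomes were lower too. Of 24 ribosome biogenesis genes measured, 23 were lower, 0 higher and 1 was not called, with a median of -1.31 ± 0.41 (pairs -0.85, -1.44 and -1.63). The median was -1.43 after the second quantile normalization and -1.48 after centring, and 21 to 23 were lower without 1 array. AT2G18220, a gene of the Noc2 family of nucleolar proteins, had 7.90, 8.59 and 8.50 in WT and 6.54, 6.34 and 6.27 in tor (-1.94 ± 0.25, limma adjusted p = 0.000246). AT3G15460 (BRX1-1), for assembly of the large subunit, had 8.71, 8.83 and 9.03 against 7.27, 7.26 and 6.90 (-1.71 ± 0.19, adjusted p = 0.000105). Neither gene had overlapping arrays, which holds for 53.4% of all probe sets. RBL (REBELOTE), a nucleolar protein, and AT3G03920 (GAR1), of the particles that modify ribosomal RNA, differed by -1.71 and -1.69. NRPA1 and NRPA2, the largest subunits of RNA polymerase I, which transcribes ribosomal RNA, differed by -1.58 (adjusted p = 0.000185) and -0.83 (adjusted p = 0.0141).

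Other parts of protein synthesis differed less. Of 15 aminoacyl-tRNA synthetase genes measured, whose products load tRNAs with amino acids, 10 were lower, 2 higher and 3 not called, median -0.50 ± 0.15 (-0.57 after the second quantile normalization). The prolyl-tRNA synthetase gene AT3G62120 had 10.85, 11.07 and 10.99 in WT and 10.25, 9.88 and 9.88 in tor (-0.97 ± 0.14, limma adjusted p = 0.000454). The genes for histidyl-, leucyl- and seryl-tRNA synthetase, AT3G02760, AT1G09620 and AT5G27470, differed by -0.79, -0.74 and -0.61, while ALATS for alanyl-tRNA synthetase was higher by 0.50 (adjusted p = 0.0115). That call was lost after centring, where 0 of the 15 genes were called higher and 11 lower. Of 9 translation factor genes, 5 were lower (6 with the replicate block), 1 higher and 3 not called, median -0.76. AT4G20980, for subunit d of initiation factor eIF3, had 9.70, 9.82 and 10.09 against 8.75, 8.33 and 8.39 (-1.38 ± 0.16, adjusted p = 0.000136). AT2G40290 for eIF2 alpha, AT1G77840 for eIF5 and EIF4A-2 differed by -1.06, -0.92 and -0.76. The arrays of these factors did not overlap between the genotypes, which holds for 53.4% of all probe sets.

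Among genes for protein folding and turnover, 6 of 8 measured subunits of the cytosolic chaperonin CCT, which folds actin and tubulin, were lower and 2 not called, median -0.69. AT3G03960, for the theta subunit, had 10.52, 10.69 and 11.10 in WT and 9.94, 9.56 and 9.73 in tor (-1.03 ± 0.18, limma adjusted p = 0.00115). Of 9 proteasome genes measured, 3 were higher (25.4% over all probe sets), 2 lower (16.0%) and 4 not called. Their median was 0.13 as deposited, -0.03 after the second quantile normalization and -0.05 after centring, so it has no direction apart from the scaling. AT1G79210, for an alpha subunit of the core, had 8.69, 8.51 and 8.55 against 9.74, 9.76 and 9.76 (1.17 ± 0.10, adjusted p = 3.2e-05), the clearest separation of the list. AT5G23540 (0.42, adjusted p = 0.0131) lost its call after centring (0.25, adjusted p = 0.144), on the 6 arrays with glucose after their own quantile normalization (0.051) and without the tor array numbered 2 (0.0563). AT5G45620 (-0.37, adjusted p = 0.0261) lost it without any 1 of the WT arrays numbered 2 (0.0766) and 3 (0.0656) or the tor arrays numbered 2 (0.105) and 3 (0.0535). AT4G24820 was higher by 0.42 as deposited (adjusted p = 0.00758), and after centring it no longer passed (0.081).

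Autophagy genes were higher, in a list also added after values were seen. Of 17 measured, 14 were higher, 0 lower and 3 not called, with a median of 1.13 ± 0.23 (pairs 0.88, 1.13 and 1.35), against 25.4% higher calls over all probe sets. The median was 0.99 after the second quantile normalization with 14 higher, and 0.96 after centring with 13 higher. The replicate block gave 15 higher. All 4 genes with the largest differences code for ATG8, the small protein that is attached to the membrane of the forming autophagosome. APG8A (ATG8A) had 8.22, 7.74 and 7.65 in WT and 9.81, 9.88 and 9.90 in tor (2.00 ± 0.19, limma adjusted p = 5.17e-05). ATG8H had 7.07, 6.14 and 5.88 against 8.23, 8.78 and 8.38 (2.10 ± 0.33, adjusted p = 0.000695). ATG8F had 9.68, 9.09 and 8.65 against 10.70, 10.97 and 10.99 (1.74 ± 0.26, adjusted p = 0.000516). In these genes the WT array numbered 1 was the highest of its group and below every tor array. ATG8E was higher by 1.75 ± 0.36 (adjusted p = 0.00322), and ATG8C by 1.69 (adjusted p = 4.45e-05). ATG8B gave 0.84 and did not pass (adjusted p = 0.0789).

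Sugar starvation genes were higher as well. Of 9 measured among 30 listed, 7 were higher, 0 lower and 2 not called, median 1.63 (1.55 after the second quantile normalization and 1.45 after centring). The pairs gave 0.84, 1.82 and 2.54, and 5 to 7 were higher without 1 array. Without all arrays numbered 1, 9 were higher with a median of 2.04. The replicate block gave 8 higher. PPDK, pyruvate orthophosphate dikinase, had 6.73, 6.74 and 6.68 in WT and 9.64, 11.12 and 11.58 in tor (4.06 ± 0.65, limma adjusted p = 0.00077). MCCA, of the leucine-degrading methylcrotonyl-CoA carboxylase, had 8.01, 6.02 and 5.96 against 9.07, 10.01 and 10.99 (3.36 ± 0.77, adjusted p = 0.00567). For both, the array numbered 1 of tor was the lowest of its group. The leucine breakdown gene IVD, with 7.80, 7.10 and 7.33 against 8.66, 10.17 and 10.52, differed by 2.37 ± 0.68 (adjusted p = 0.0169). It lost its call without the WT array numbered 2 (0.0553), the tor array numbered 2 (0.0593) or the tor array numbered 3 (0.068). AT3G15450, a sugar-repressed gene, was higher by 2.35 ± 0.37 (adjusted p = 0.000731) and BZIP53, a transcription factor of amino acid breakdown, by 1.14 (adjusted p = 0.00145). GAT1_2.1 gave 1.46 (adjusted p = 0.119) and ATL8 0.51 (adjusted p = 0.561), neither past the test in the fit without the block.

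Of the kinases themselves, few genes have a named probe set. RAPTOR1, the partner of TOR, had 8.50, 8.38 and 9.00 in WT and 9.77, 10.01 and 10.58 in tor (1.49 ± 0.28, limma adjusted p = 0.00215). RAPTOR2 had 6.34, 6.13 and 6.35 against 7.12, 7.22 and 7.26 (0.92 ± 0.23, adjusted p = 0.00946). Both were higher on every tor array, and without glucose they differed by 1.38 and 1.45. AKINBETA1, a regulatory subunit of SnRK1 also counted among the starvation genes, had 8.75, 7.82 and 7.85 in WT and 9.51, 9.37 and 10.19 in tor (1.55 ± 0.34, adjusted p = 0.00445). The other 2 measured genes of SnRK1 subunits were not called, with AT2G28060 at -0.13 and AT4G16360 at -0.01.

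Genes of DNA replication were lower. POLA3, a subunit of the primase that starts new DNA strands, had 8.64, 9.11 and 8.75 in WT and 6.34, 5.42 and 5.08 in tor (-3.22 ± 0.38, limma adjusted p = 0.000146). ICU2 (the catalytic part of polymerase alpha) had 7.31, 7.87 and 8.12 against 5.12, 4.42 and 4.27 (-3.17 ± 0.30, adjusted p = 4.34e-05). PRL (MCM7, part of the helicase that opens DNA for copying) had 9.02, 9.41 and 9.30 against 7.47, 6.06 and 5.75 (-2.82 ± 0.47, adjusted p = 0.00105). In all 3 genes the tor array numbered 1 was the highest of its group and lay below WT. The list holds only these 3 measured genes, with a median of -3.17 (-3.30 after the second quantile normalization). The Aurora kinases of mitosis were not called, with -1.22 for AUR2, -0.81 for AUR3 and -0.63 for AUR1 (adjusted p = 0.17, 0.107 and 0.471). Blocked on the replicate number, all 3 were called lower, AUR3 at an adjusted p of 0.00919. AUR3 also passed after centring (0.0465).

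**Figure D3:**
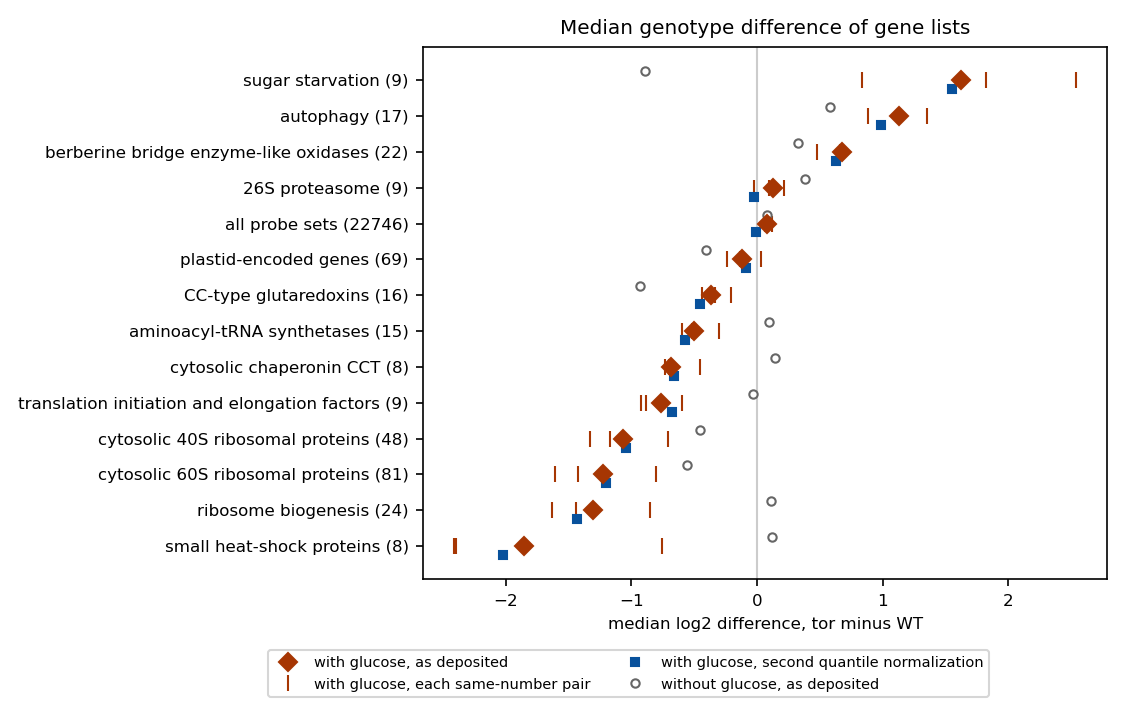
Median log2 difference, tor minus WT, for the lists with at least 8 measured genes and for all probe sets (number measured in brackets). Diamonds are values with glucose as deposited, vertical ticks the 3 same-number array pairs, squares values after a second quantile normalization and open circles values without glucose; small heat-shock protein and ribosome lists lie lowest and the sugar starvation list highest with glucose.

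Markers of organs and cell types did not move in 1 direction. EXPA7, an expansin of root hair cells, had 7.39, 6.76 and 6.95 in WT and 4.92, 4.78 and 4.78 in tor (-2.20 ± 0.26, limma adjusted p = 0.000154). SPCH, the transcription factor that starts the stomatal lineage, had 7.43, 7.72 and 8.14 against 5.65, 5.30 and 5.52 (-2.27 ± 0.17, adjusted p = 1.6e-05). Both were separated between the genotypes, while FMA, which acts late in the stomatal lineage, gave 0.21 (adjusted p = 0.396) and the root hair gene XTH26 -0.12 (adjusted p = 0.412). A second root hair expansin, EXPA18, was lower by 0.71 on the log2 scale (-0.71, adjusted p = 0.0458), and lost its call without any 1 of the 6 arrays (0.0629 to 0.114). The root meristem receptor kinase gene AT5G48940 (RCH1) was higher by 1.03 (adjusted p = 0.0193). It lost its call without the WT arrays numbered 2 (0.0554) or 3 (0.0604) or the tor arrays numbered 1 (0.0613) or 2 (0.0502). The shoot meristem gene CLV3 gave 0.34 (adjusted p = 0.249) and the pollen gene AGL18 0.36 (adjusted p = 0.0941). Leaf genes were split, with RCA, the activase of Rubisco, at -0.51 (adjusted p = 0.00155) and LHCB4.2 of the light-harvesting antenna at 0.80 (adjusted p = 0.0143). The latter call was lost without the WT array numbered 3 (0.0582) or the tor array numbered 2 (0.0505). Cell type and level per cell in these markers were not separated, and their part in the other results was not tested.

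A few metabolic genes were measured. UGT78D1, which adds rhamnose to flavonols, had 8.92, 8.98 and 9.84 in WT and 6.77, 6.97 and 7.05 in tor (-2.31 ± 0.30, limma adjusted p = 0.000255). AIM1, of fatty acid beta-oxidation, had 9.26, 9.47 and 9.40 against 10.25, 10.68 and 10.95 (1.25 ± 0.25, adjusted p = 0.00304). Neither overlapped between the genotypes, as for 53.4% of all probe sets. SDP1, the lipase of seed oil, gave 1.04 (adjusted p = 0.037), but 0.87 after the second quantile normalization, where it was not called (0.0668), nor was it without the WT arrays numbered 2 (0.0899) or 3 (0.107) or the tor arrays numbered 2 (0.101) or 3 (0.123). Isocitrate lyase (ICL) of the glyoxylate cycle gave 0.21 (adjusted p = 0.504). PDC2, pyruvate decarboxylase, was higher by 1.35 (adjusted p = 0.0172), not called without the WT arrays numbered 1 (0.063) or 2 (0.0559) or the tor array numbered 3 (0.0694). TPI, triose phosphate isomerase, was lower by 0.52 (-0.52, adjusted p = 0.00766). UGT74B1 of glucosinolate synthesis gave 0.62 (adjusted p = 0.0124), and lost its call after centring (0.0751) or without the WT array numbered 2 (0.0525). Of the reference genes used to normalize transcript measurements, AT2G28390 gave 0.49 and AT4G34270 0.34 as deposited (adjusted p = 0.0024 and 0.0123). After the second quantile normalization AT4G34270 was not called (0.19, adjusted p = 0.121). The cold- and drought-responsive COR15A was higher by 0.59 at a dim level (adjusted p = 0.0142), not called after centring (0.06), and the clock gene GI gave 0.53 (adjusted p = 0.174, and 0.0308 with number blocked).

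CC-type glutaredoxins, small redox proteins of land plants, went both ways. Of 16 measured, 3 were higher, 6 lower and 7 not called, against 25.4% higher and 16.0% lower over all probe sets. The median of the 16 was -0.36 (-0.45 after the second quantile normalization, with 2 higher and 8 lower). The replicate block gave 3 higher and 8 lower. AT3G62950 had 4.04, 3.83 and 3.72 in WT and 5.97, 5.83 and 5.86 in tor (2.03 ± 0.42, limma adjusted p = 0.00326), and GRX480, which binds TGA transcription factors, was higher by 1.53 (adjusted p = 0.0105). On chromosome 4, the neighbouring genes AT4G15700 and AT4G15680 were lower, with differences of -1.89 (adjusted p = 0.00313) and -1.67 (adjusted p = 0.00612). Being near-identical, these neighbours may share probes.

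The genotype difference without glucose comes from the other 6 arrays and shares none with the one above. Without glucose 6408 probe sets were called, 28.2% of those tested, 4438 higher in tor (19.5%) and 1970 lower (8.66%). This split depends on the scaling too, with 3110 higher and 3020 lower after the second quantile normalization and 2344 higher and 4759 lower after centring, and the counts that follow are on the values as deposited. Of the 5776 probe sets higher with glucose, 3256 were also called higher without it, 60 were called lower and 2460 not called. Of the 3642 lower with glucose, 1179 were also called lower without it, 93 were called higher and 2370 not called. The median difference of the probe sets higher with glucose was 0.83 with it and 0.57 without, and that of the lower ones was -0.86 and -0.34. As the probe sets were chosen for their values with glucose, the larger size there is in part a result of that choice. Over all probe sets the differences with and without glucose correlated at a Pearson r of 0.70 and a Spearman rho of 0.65, given as a description, since probe sets are not independent replicates.

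Whether the genotype difference itself changed with glucose was tested by the interaction in the same fit. It was called for 1220 probe sets, 5.36% of those tested, 438 with a higher (1.93%) and 782 with a lower difference with glucose (3.44%). After centring the split was 592 higher and 614 lower. Blocked on replicate number, 3043 were called, 13.4% (5.34% higher and 8.04% lower), so this count depends strongly on the treatment of the pairs. Leaving out 1 array gave 477 (without the WT array without glucose numbered 2) to 1828 (without its number 1). Of the probe sets called with glucose, 328 of the higher and 660 of the lower were called for the interaction. In 307 of the 328 the difference with glucose lay above that without, and in 644 of the 660 below it. These are counts of direction and not of size, since some differences had opposite signs with and without glucose. They are also in part a result of choosing probe sets by their values with glucose.

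Ribosome biogenesis genes, 23 of 24 lower with glucose, split into 2 higher, 2 lower and 20 not called without it. Of the 24 genes 19 were called for the interaction, all with a lower difference with glucose (21 with the block), and their median genotype difference was 0.11 without glucose. The mean level of AT3G15460 was 5.29 in WT and 6.78 in tor without glucose, so tor was higher there by 1.49 (limma adjusted p = 0.00035), the opposite of the -1.71 with glucose (interaction -3.20, adjusted p = 0.000965). Ribosomal protein genes were already lower without glucose by the median, -0.56 for the 60S and -0.45 for the 40S list, with 21 and 12 called lower and 1 called higher in each. The interaction was called lower for 4 of the 81 and 6 of the 48, and for 22 and 16 with the block. Over all probe sets it was called lower for 3.44%, and for 8.04% with the block, and 4 of 81 is near the former share. Among the aminoacyl-tRNA synthetases 5 (8 with the block) and among the CCT subunits 4 (5 with the block) were called lower for the interaction, with medians of 0.09 and 0.15 without glucose.

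The sugar starvation list had a median of -0.89 without glucose, and 4 of 9 genes were called for a higher difference with glucose, 8 with the block. Over all probe sets this share was 1.93%, and 5.34% with the block. PPDK had a mean level without glucose of 11.52 in WT and 11.50 in tor, so its difference of 4.06 was found with glucose and not without it (interaction 4.09, limma adjusted p = 0.0304). AKINBETA1 was lower in tor without glucose (-1.14, adjusted p = 0.0292) and higher with it. AT3G62950, the glutaredoxin gene, was likewise lower without glucose (-1.71, adjusted p = 0.0119) and higher with it. Autophagy genes were higher in both conditions by the median, 0.58 without glucose with 8 called higher, and 4 were called for a higher difference with glucose (6 with the block). For ATG8F the difference was -0.17 without glucose, and for APG8A 0.94. In the DNA replication list the median was -0.61 without glucose, and 2 of 3 genes, POLA3 and ICU2, were called for the interaction (all 3 with the block).

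**Figure D4:**
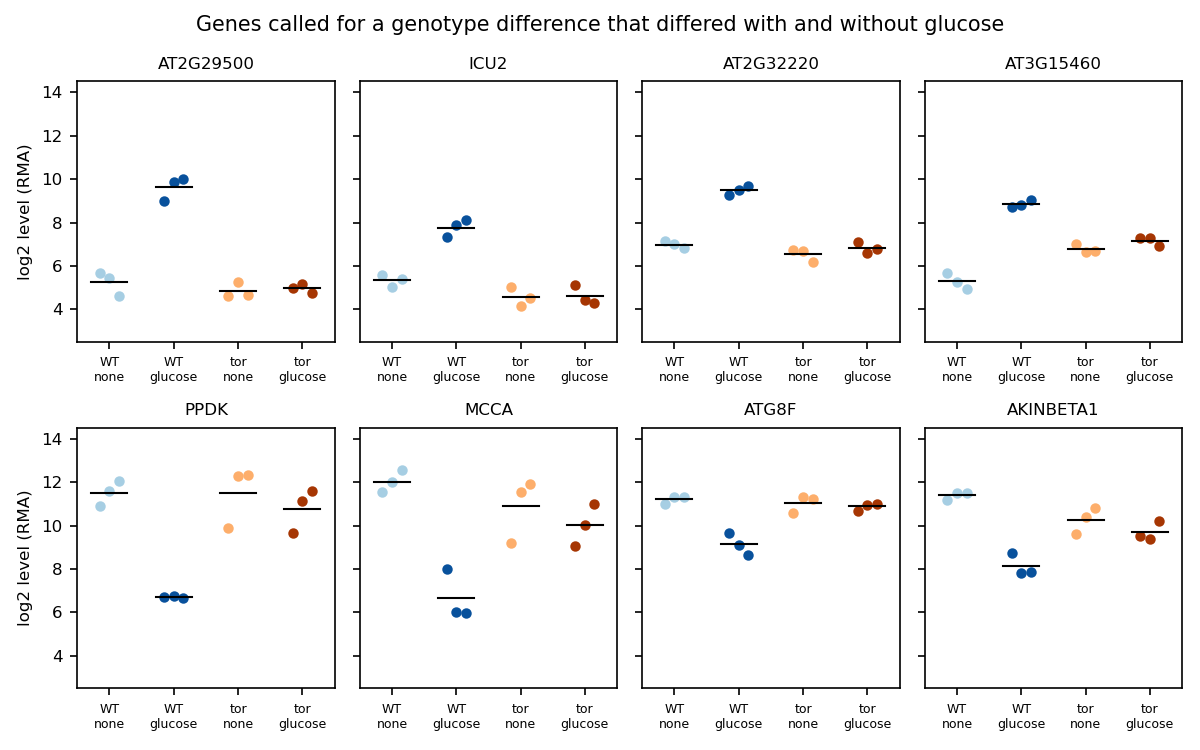
Log2 level (RMA, as deposited) of 8 genes on each array, 3 points per group with the group mean as a line, picked for display after their values were seen. In AT2G29500, ICU2, AT2G32220 and AT3G15460 WT with glucose stands above the other 3 groups; in PPDK, MCCA, ATG8F and AKINBETA1 it stands below them.

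**Figure D5:**
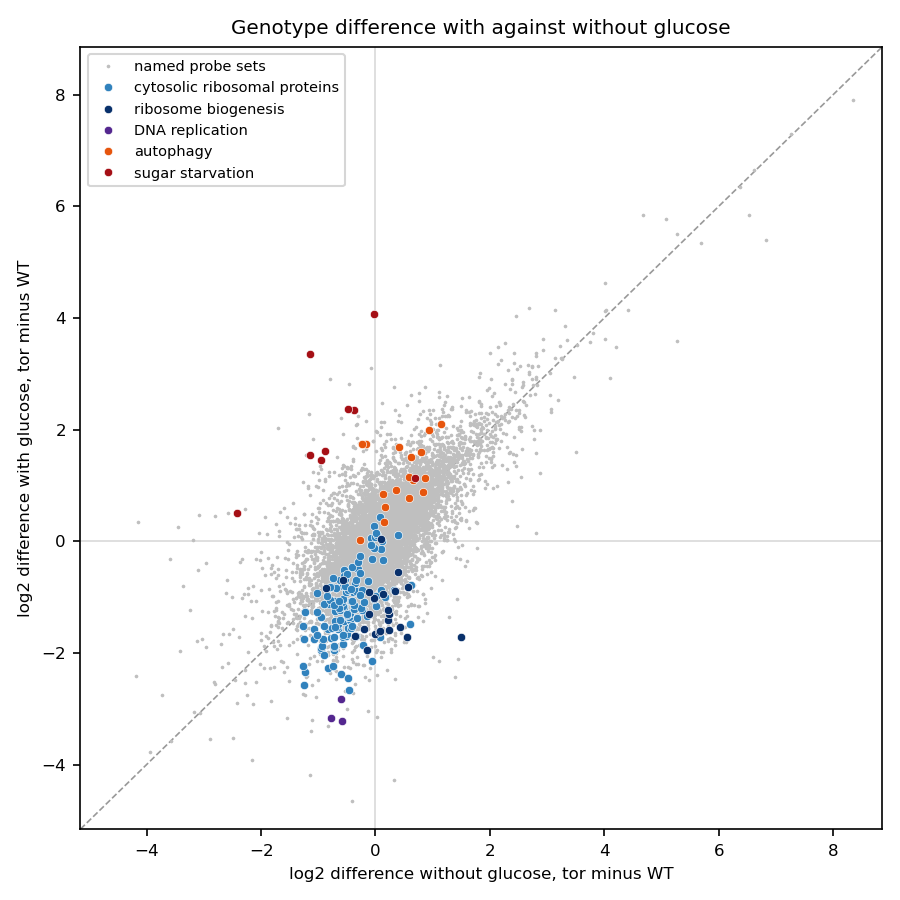
Log2 difference, tor minus WT, with glucose (vertical) against without glucose (horizontal) for all probe sets with 1 gene (grey) and for members of 5 gene lists (coloured); the dashed line marks equal differences. Ribosome biogenesis and ribosomal protein genes lie mostly below the line, sugar starvation genes mostly above it, and the genes with the highest differences lie near it.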

How the data were processed

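The authors deposited one value per probe set and array on the log2 scale, made with RMA per the submitters' processing notes; its version, and whether both genotypes were normalized together, are not given in the sources used here. Groups and replicate numbers come from the labels. The 64 control sets among 22810 were dropped, and 1 missing value, on a tor array with glucose, dropped that array for its probe set. Gene names come from the platform annotation updated through RefSeq (13436 of 13513); 503 probe sets with several genes and 8730 with none enter counts only. TOR transcripts, sequences and coordinates were not analysed here.

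One linear model with a mean per group was fitted to all 12 arrays (lmFit and eBayes of limma 3.58.1, R 4.3.3, two-sided, Benjamini-Hochberg within a comparison). The fit was also run on simulated data with independent noise. Those data held no shift of array medians and no pairing, so the check does not bear on either. Errors of genes are standard errors of the fit; list medians carry the SD over 3 same-number pairs. The replicate numbers were not blocked. Same-numbered arrays correlated at 0.20 to 0.86 over the 18 pairs after group means were removed, so they pair the samples. For tor against WT with glucose the correlations were 0.31 to 0.39. The main p-values do not take this pairing into account. The block is given beside many of the counts and calls that it changes, but not all. A gene given as not called may therefore pass with it. Alternatives were a second quantile normalization, centring, the block, a filter at a mean level of 5, an intensity trend, the 6 arrays with glucose alone and leaving out arrays.

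The 34 gene lists, their loci and the genes' roles come from general knowledge, and 30 have a member measured; where a gene has several probe sets, a list uses the one with the highest mean. Nitrogen assimilation, trehalose, seed storage, and heat-shock factors with large chaperones had 0. Named are the 12 highest and 12 lowest genes called in the same direction as deposited and after quantile normalization without overlap, and up to 4 called members of each list or, if none, the one with the smallest p (1 gene so chosen is not reported here); other genes named were chosen after their values were seen, as was the panel of list members not called. The comparison, lists and rules were chosen with earlier results of these data known. The lists of ribosomal proteins, ribosome biogenesis, tRNA synthetases, translation factors, proteasome, CCT and small heat-shock proteins were added after values were seen. So were those of autophagy, glutaredoxins, berberine bridge enzyme-like oxidases, other defence genes and plastid genes, and in part those of DNA replication and root markers. Of 147 genes with several probe sets, 73 had a call and 47 of these were called by some but not all.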

Additional observations from a re-analysis of the deposited data

Results flagged for a closer look

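For 29 of the 98 genes named by the rules above, the genotype difference changed with glucose by the interaction test (limma, Benjamini-Hochberg adjusted p under 0.05). Over all probe sets the share was 5.36%. Many of the 98 were picked for large differences with glucose, which in part raises their count. Genes named outside the rules were not counted. The values, the difference with glucose minus that without, are listed here without an explanation. All 29 were also called with the replicate number as a block, and 25 after a second quantile normalization. The exceptions were MCCA (adjusted p = 0.0597), UGT74B1 (0.0639), AT3G03960 (0.0687) and AT3G06680 (0.0506). Of them 13 kept the call in each of 12 fits that left out 1 array, and for the others the adjusted p reached at most 0.126.

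The small heat-shock protein genes gave -4.60 (AT1G53540) and -4.25 (AT2G29500). The DNA replication genes gave -2.64 (POLA3) and -2.38 (ICU2). Ribosome biogenesis genes gave -3.20 (AT3G15460), -2.27 (RBL), -1.80 (AT2G18220) and -1.33 (AT3G03920). Ribosomal protein genes gave -2.20 (AT2G32220), -1.96 (AT3G57490) and -1.78 (AT3G06680). Translation factor genes gave -1.35 (AT4G20980), -0.87 (AT1G77840) and -0.83 (EIF4A-2), and the histidyl-tRNA synthetase gene AT3G02760 gave -1.02. Chaperonin CCT genes gave -1.05 (AT3G02530), -0.97 (AT3G03960) and -0.76 (AT3G18190). UGT78D1 gave -2.52, the GDSL lipase gene AT3G48460 -2.28, AT3G13672 -1.43 and UGT74B1 -0.95. Differences that were higher with glucose were found for MCCA (4.50), PPDK (4.09), the glutaredoxin gene AT3G62950 (3.74), AT3G15450 (2.73), AKINBETA1 (2.69), ATG8E (1.98) and ATG8F (1.91).

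The calls held in all 12 such fits for AT1G53540, AT2G29500, AT3G15460, UGT78D1, ICU2, RBL, AT2G32220, AT3G13672, AT4G20980, AT3G02530, AT3G18190, AKINBETA1 and AT3G62950. They were least stable for AT3G03960, UGT74B1 and ATG8E, called in 2 of the 12. MCCA, with the largest difference listed above, was called in 4 of the 12, and PPDK in 6.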

How the results depend on the processing

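For tor against WT with glucose the number of calls (9418) stayed within 1.5 times under the alternatives that change no threshold: 9212 after a second quantile normalization, 9151 after centring, 11565 with the replicate number as a block, 11519 with both block and quantile normalization, 7992 with the filter on dim probe sets, 9459 with an intensity trend, and 8986 from the 6 arrays with glucose alone. Leaving out 1 array gave 7154 to 9456. A demand for at least 2-fold left 3644. Without glucose, leaving out 1 array gave 4273 to 6856 calls. The interaction (1220) moved most: the block gave 3043, the block after quantile normalization 2955, leaving out all arrays numbered 1 gave 2936, and leaving out 1 array gave 477 to 1828; fewer arrays, or a spread with the pairs removed, enter these fits. Among the 98 genes named by the rules, 0 changed direction under any alternative, and 76 kept their side of the threshold under all those run. Of 1565 values over these genes and alternatives, 72 lost and 9 gained a call. Genes named outside the rules are not in these counts. Leaving out all arrays numbered 1 ended the calls of LHCB4.2 (adjusted p = 0.0549), COR15A (0.068), PDF1.2 (0.0541), AT4G34270 (0.0762) and ndhG (0.0688), and the 6 arrays with glucose alone those of PDF1.2 (0.054) and AT5G45620 (0.055) or, after their own quantile normalization, of TPI (0.0618) and AT2G28390 (0.0521). Precision is limited by 3 arrays a group and by dim probe sets, 29.5% of those tested, for which no detection calls were used; the separate promoter motif count was not run, as no sequences were used here.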

Other observations

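Genes encoded by the plastid genome, which are transcribed outside the nucleus, gave counts of calls that depend on the treatment of the arrays. Of 69 measured, 2 were higher in tor, 3 lower and 64 not called, with a median of -0.12. A second quantile normalization gave 5 higher and 5 lower, centring 0 and 9, the replicate block 6 and 10, and the block after quantile normalization 9 and 11. The genes called higher were rps14, with 4.44, 5.01 and 4.52 in WT and the higher levels of 5.34 to 6.14 in tor (1.04, limma adjusted p = 0.0235), and ndhG (0.70, adjusted p = 0.0341), neither called after quantile normalization (0.0584 and 0.106). The genes called lower were rpoC1 of the plastid RNA polymerase (-0.96, adjusted p = 0.0348), rpl16 (-0.79, adjusted p = 0.016) and rbcL of Rubisco (-0.70, adjusted p = 0.0474). Leaving out 1 array left 0 to 2 higher and 0 to 4 lower, with rps14, ndhG, rpoC1 and rpl16 each losing the call without at least 3 of the single arrays with glucose. No gene was called lower without the WT array numbered 2 or 3 or the tor array numbered 2, so rbcL lost its call there too.

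Some genes had genotype differences of opposite sign with and without glucose, each called on the values as deposited; those named here were chosen after their values were seen. After a second quantile normalization the signs were the same, but of the 5 genes below XTH19 alone was still called without glucose (adjusted p = 0.0341). GH9C2, a cellulase of the cell wall, and XTH19, an enzyme that cuts and joins xyloglucan, were lower in tor with glucose and higher without it. The log2 difference of GH9C2 was -1.36 with glucose (limma adjusted p = 0.0213) and 1.28 without (0.0389, and 0.0905 after quantile normalization), and that of XTH19 was -1.42 (0.000874) and 0.84 (0.0214). PPR596, of the pentatricopeptide repeat proteins that act on organelle RNA, gave -1.54 with glucose (adjusted p = 2.25e-05) and 0.52 without (0.0122), the latter 0.31 and not called after quantile normalization (0.103). YAO, a protein of ribosomal RNA processing, gave -1.53 (adjusted p = 2.68e-05) and 0.43 (0.0323), the latter 0.20 and not called after quantile normalization (0.269). AT1G06000, for a rhamnosyltransferase of flavonols, gave -2.11 (adjusted p = 0.00583) and 1.44 (0.0478, and 0.0928 after quantile normalization).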
